A study of Mus musculus with 6 samples.

Results

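The nuclear genes of respiratory complexes II to V were compared between wild-type and knockout haematopoietic stem and progenitor cells. The members were chosen by gene name: those beginning with Sdha to Sdhd, Uqcr, Cyc1, Cycs, Cox4 to Cox8 or Atp5, without names marked as pseudogenes, and with at least 60 reads summed over the 6 libraries. The rule found 51 genes among the 18491 of the deposited table, and all 51 passed the filter on low counts that left 15474 genes for testing. The lowest member, Cox7a1, had 235 reads in all, and no gene that met the name rule fell under the minimum. By complex, 8 genes belong to complex II, 9 to complex III, 1 to the carrier cytochrome c, 16 to complex IV and 17 to complex V.

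Stem and progenitor cells of mouse bone marrow were isolated by flow sorting, and their RNA was sequenced in 3 wild-type and 3 knockout libraries. Per the series text, Robo1 was deleted with Mx1-cre, a Cre driven by an interferon-responsive promoter that is not limited to blood cells, after 3 doses of poly(I:C), an inducer of interferon. The labels give cell collection at 8 months after the injection for both groups, and do not say whether the wild-type mice carried the Cre or the floxed allele, nor the age, sex or strain of the mice. The same labels call the wild-type libraries scramble shRNA controls and give the knockout libraries the genotype ROBO1 knockdown, with ROBO1, ROBO2 and ROBO3 named in turn as the treatment of libraries 1, 2 and 3. Groups here follow the descriptions WT and KO, and Robo1 itself was not analysed here. Nothing in the labels says that libraries of a group came from separate animals, so the p-values weigh differences against a library-to-library spread that may be technical only.

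The respiratory chain passes electrons from food-derived substrates to oxygen in the inner mitochondrial membrane. Complex II (succinate dehydrogenase) and complex I feed electrons to complex III, cytochrome c carries them to complex IV (cytochrome c oxidase), and complex V (ATP synthase) uses the proton gradient to make ATP. Complex II is built from nuclear genes alone, whereas complexes III, IV and V also hold subunits encoded in mitochondrial DNA. Resting haematopoietic stem cells are known for leaning on glycolysis, and oxidative phosphorylation rises as they commit to differentiate.

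Library totals ran from 42235077 to 58106099 reads. The 100 most abundant genes took 42.3 to 43.3% of the reads in wild type and 59.7 to 60.8% in knockout, so the scale of comparison matters. With TMM scaling, which sets libraries level on the bulk of their genes, the median log2 fold change (knockout over wild type) of all genes tested was -0.09. With total counts, which set every library to the same sum, it was -1.22. Every fold change below is given with its scale, and levels are in CPM, the reads of a gene scaled to a common library size. RNA from the sorted pool gives no cell numbers, and fewer cells of a type cannot be told apart from less RNA per cell.

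The groups also differed in lists of blood lineage markers. Whether their reads came from mature cells or from progenitors in the sorted pool was not tested. Genes in these lists are called higher or lower with TMM scaling (adjusted p under 0.05, edgeR). Such calls were made for 17.2% (higher) and 14.4% (lower) of all genes tested. Summed neutrophil-lineage markers (8 genes, granule proteins of promyelocytes included) stood at 84820 to 95170 TMM-scaled CPM in wild type and 265100 to 281000 in knockout, with 6 of the 8 higher. The 5 eosinophil and basophil markers, all higher, summed to 5836 to 7015 and 43740 to 49450, and the 7 erythroid markers, 4 of them higher and 1 lower, to 1430 to 1921 and 4765 to 5732. These 3 sums were also higher in every knockout library by total counts. B and plasma cell markers (6 genes) summed to 10990 to 11790 and 35400 to 37280, nearly all of it Igkc. In that list 2 genes were higher (Igkc and Jchain), 2 lower (Cd79a and Ebf1) and 2 did not pass. By total counts the B and plasma cell sum was higher too, at 16670 to 17470 in wild type and 23680 to 25360 in knockout. T and NK markers (3 of 4 genes in the table) summed to 3365 to 3428 and 6322 to 6736, nearly all of it Nkg7, which was higher, while Lck was lower and Cd3g did not pass. By total counts the T and NK sum went the other way, from 4925 to 5105 in wild type to 4261 to 4582 in knockout. The 12 stem and progenitor markers, 2 of them higher and 3 lower, summed to 234 to 247 TMM-scaled CPM in wild type and 253 to 261 in knockout, and by total counts to 336 to 375 and 167 to 177. No marker in these lists was at 0 in all libraries of the study. The part of the cells that carry these markers in the values of the respiratory genes was not tested.

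With TMM scaling, 42 of the 51 genes were higher in knockout, 2 were lower and 7 did not pass an adjusted p of 0.05 (edgeR's quasi-likelihood test, Benjamini-Hochberg adjustment over all genes tested). Among all genes tested, 31.7% were called on this scale, 17.2% higher and 14.4% lower. The members' median log2 fold change was 0.81, with a range from -1.78 to 2.07. With total counts, 8 members were higher, 36 were lower and 7 did not pass, against a background of 74.9% called, 4.24% higher and 70.7% lower, and their median was -0.33. The 8 genes called higher on both scales were Uqcrh of complex III, Cox4i1, Cox5a and Cox6a1 of complex IV, and Atp5a1, Atp5b, Atp5c1 and Atp5g3 of complex V. Across all genes tested, 4.24% were higher on both scales and 14.4% lower on both. The 2 members lower on both scales were Sdhaf1 and Sdhaf4, assembly factors of complex II. With length and GC offsets in the TMM fit, which adjust each library for gene length and base composition, 33 members were higher and 5 lower (Sdhaf1, Sdhaf4, Cox6a2, Cox7a1 and Atp5k), beside 15.2% and 15.3% of all genes tested, and their median was 0.47. The sign therefore depended on the scale for most members, 29 of which were called higher with TMM scaling and lower with total counts.

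**Figure D1:**
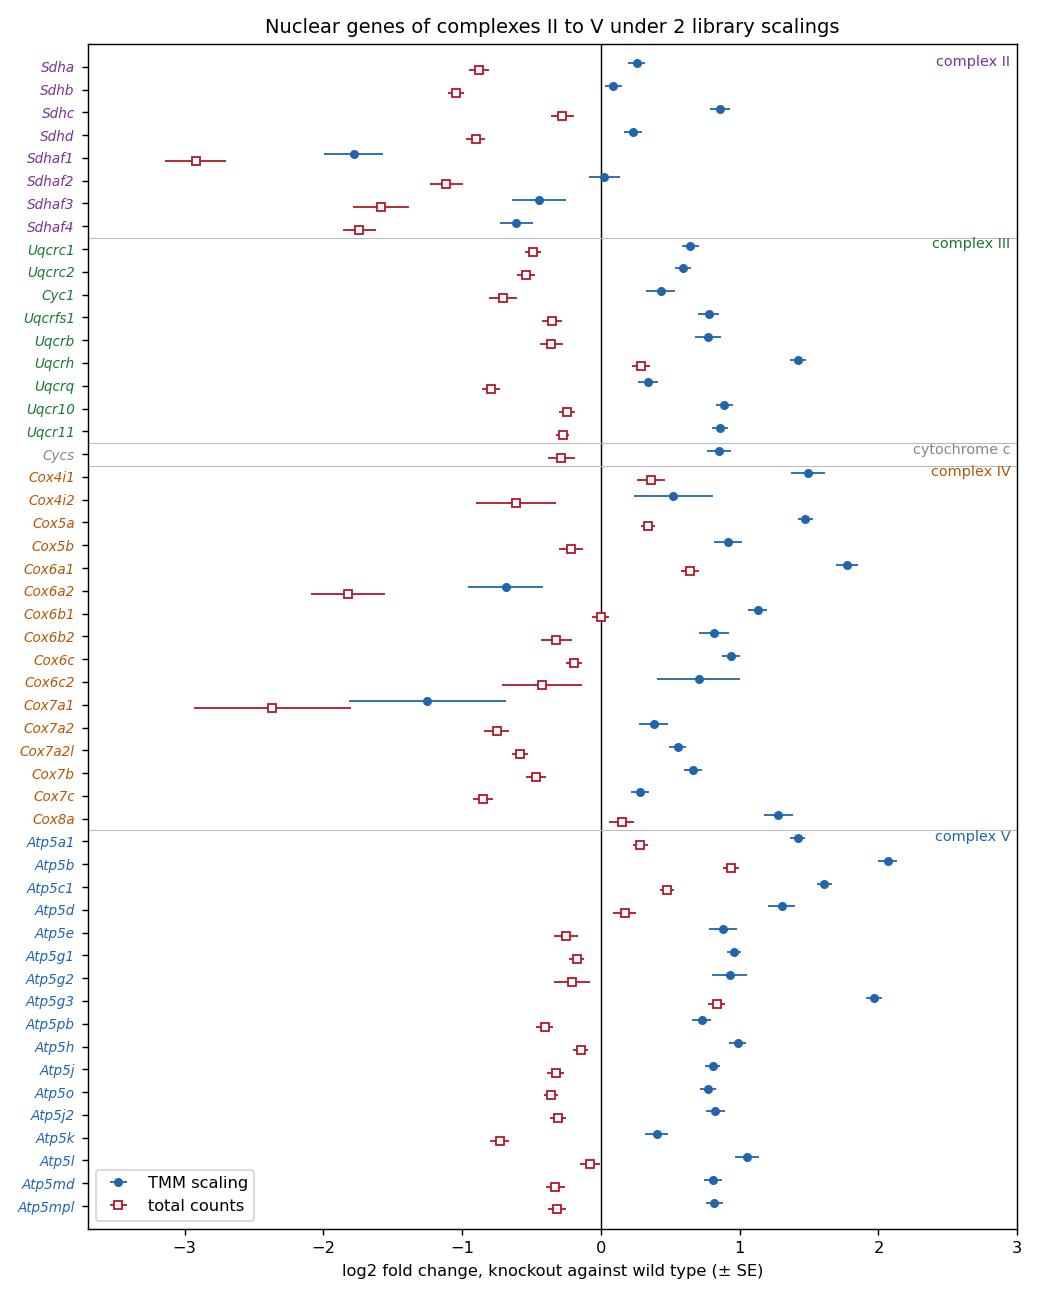
Log2 fold change (knockout over wild type) of the 51 genes by complex, with TMM scaling and with total counts, each with its SE (n = 3 libraries per group). With TMM scaling 42 genes were called higher and 2 lower, and with total counts 8 were called higher and 36 lower.

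In every knockout library, 42 members stood above every wild-type library with TMM scaling and 5 below, where 22.2% of all genes tested stood above and 24.4% below. With total counts 8 stood above and 35 below, beside 4.85% and 76.1% of all genes tested. The authors' deposited table sorts the members into 38 STABLE, 12 UP and 1 DOWN, where 87.0% of its genes are STABLE, 8.21% UP and 4.81% DOWN. The UP members had deposited log2 fold changes from 1.06 (Atp5l) upward, while Atp5h (0.99) and Atp5g1 (0.96) were STABLE. STABLE thus does not mean unchanged, and these classes are not like the calls above, which had no minimum fold change.

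The promoters of 5 members are shown for contrasts described later: Sdhb did not pass with TMM scaling, Cycs is the carrier between complexes, Atp5b had the largest rise, and Atp5g1 and Atp5g3 encode the same mature c subunit. Each stretch runs from 250 bases before to 50 after the RefSeq start site, 5′ to 3′ on the strand of the gene, in GRCm38.p6. Capitals mark matches to GCGCANGC, the core bound by NRF1, or CCGGAAG, the core bound by GABP and other ETS factors, on either strand. The windows lie at chr4:140961021-140961320, plus strand (Sdhb), chr6:50566520-50566819, minus strand (Cycs), chr10:128083057-128083356, plus strand (Atp5b), chr11:96075582-96075881, minus strand (Atp5g1) and chr2:73911277-73911576, minus strand (Atp5g3).
Sdhb: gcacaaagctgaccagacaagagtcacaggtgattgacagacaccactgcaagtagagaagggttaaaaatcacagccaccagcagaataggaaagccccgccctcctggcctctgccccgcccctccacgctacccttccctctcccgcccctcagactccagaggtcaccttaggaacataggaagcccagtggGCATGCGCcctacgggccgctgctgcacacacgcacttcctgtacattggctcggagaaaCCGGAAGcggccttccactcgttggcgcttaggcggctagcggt
Cycs: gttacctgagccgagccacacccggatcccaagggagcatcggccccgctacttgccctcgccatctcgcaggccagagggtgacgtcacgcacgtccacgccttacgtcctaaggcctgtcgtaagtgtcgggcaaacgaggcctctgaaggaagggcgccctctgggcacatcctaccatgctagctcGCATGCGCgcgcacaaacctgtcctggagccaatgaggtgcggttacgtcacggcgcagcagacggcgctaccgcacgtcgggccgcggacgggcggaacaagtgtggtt
Atp5b: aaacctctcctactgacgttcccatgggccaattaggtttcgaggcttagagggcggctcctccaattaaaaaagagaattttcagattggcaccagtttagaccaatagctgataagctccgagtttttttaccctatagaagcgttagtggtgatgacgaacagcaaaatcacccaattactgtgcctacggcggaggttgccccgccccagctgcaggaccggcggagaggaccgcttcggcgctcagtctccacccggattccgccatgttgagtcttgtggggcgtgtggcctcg
Atp5g1: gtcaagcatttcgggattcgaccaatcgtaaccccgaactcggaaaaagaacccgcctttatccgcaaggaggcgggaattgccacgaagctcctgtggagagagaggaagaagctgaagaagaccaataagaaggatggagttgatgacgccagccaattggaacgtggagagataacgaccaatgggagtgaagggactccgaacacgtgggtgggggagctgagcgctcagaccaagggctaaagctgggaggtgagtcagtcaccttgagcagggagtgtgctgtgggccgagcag
Atp5g3: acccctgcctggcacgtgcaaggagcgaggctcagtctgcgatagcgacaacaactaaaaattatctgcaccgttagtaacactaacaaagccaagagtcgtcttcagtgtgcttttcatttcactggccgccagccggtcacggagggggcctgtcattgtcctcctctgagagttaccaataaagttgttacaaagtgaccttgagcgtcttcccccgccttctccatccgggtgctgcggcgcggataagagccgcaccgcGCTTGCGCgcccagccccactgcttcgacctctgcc

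In these windows the Sdhb promoter held an NRF1 core starting at base 197 and a GABP core at base 257, the Cycs promoter an NRF1 core at base 191, and the Atp5g3 promoter an NRF1 core at base 265. Neither set of letters was found in the Atp5b and Atp5g1 windows. A RefSeq promoter was matched for 39 of the 51 genes, and it was not for Sdhc, Uqcrc2, Cyc1, Uqcrb, Uqcrq, Cox4i1, Cox4i2, Cox6a2, Cox6c, Cox6c2, Atp5a1 and Atp5mpl. Each of these members was given a single promoter, the nearest to its annotated start. The RefSeq table was taken whole, with any further promoters of a gene, and was not matched for base composition or expression. The NRF1 core was in 16 of the 39 promoters (41.0%) and in 9.95% of the 32851 promoters of the same length in the RefSeq table. The GABP core was in 15 of 39 (38.5%) and in 8.86% of the table. AAGATGGC, the core bound by YY1, was in 2 of 39 (5.13%) and in 2.75% of the table, and TATAAA, the TATA box, in 3 of 39 (7.69%) and in 13.6%. By complex, the NRF1 core was in 5 of 7 promoters of complex II, 2 of 5 of complex III, 1 of 11 of complex IV and 7 of 15 of complex V. Whether promoters with and without a core differed in the change of their genes was not tested. A match of letters is a description of the sequence and not evidence of binding.

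Complex II had the smallest median log2 fold change of the complexes with TMM scaling (0.06), with genes called in both directions. The complexes were not tested against each other. Of its 4 subunit genes, Sdha, Sdhc and Sdhd were higher in knockout and Sdhb did not pass, and of its 4 assembly factors Sdhaf1 and Sdhaf4 were lower and Sdhaf2 and Sdhaf3 did not pass. The median log2 fold change was 0.24 for the subunits and -0.53 for the assembly factors with TMM scaling. With total counts all 8 genes were lower, where 70.7% of all genes tested were. Their median was -1.08, close to the median of -1.22 over all genes tested.

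Sdha (chr13:74322254-74350280, minus strand, with all coordinates on GRCm38) encodes the flavoprotein that oxidises succinate. Its TMM-scaled level was 195, 207 and 209 CPM in the wild-type libraries and 234, 245 and 252 in the knockout libraries. All knockout libraries were above all wild-type libraries, by a small margin (log2 fold change 0.26, SE 0.06, adjusted p = 0.0119, edgeR). Its partner Sdhb (chr4:140961203-140979193, plus strand), the iron-sulphur subunit, stood at 253, 230.2 and 234 CPM in the wild-type libraries and 253, 254 and 257 in the knockout libraries. These groups overlapped, since wild-type library 1 was as high as the knockout libraries (log2 fold change 0.09, SE 0.06, adjusted p = 0.319, edgeR). By total counts the same gene stood at 363, 349 and 349 CPM in the wild-type libraries and 167, 174 and 175 in the knockout libraries, and every knockout library was below every wild-type library, with a change on the log2 scale of -1.04 (SE 0.06, adjusted p = 7.69e-07) in edgeR beside -1.22 for the median of all genes.

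The membrane anchors Sdhc and Sdhd hold the haem of the complex. Sdhc stood at 48.3, 49.9 and 50.9 TMM-scaled CPM in the wild-type libraries and 90.7, 95.1 and 84.0 in the knockout libraries. It was the member of complex II with the largest rise (log2 fold change 0.86, SE 0.07, adjusted p = 2.1e-05, edgeR), and by total counts it was lower (-0.28). Sdhd stood at 82.5, 84.1 and 82.3 CPM in the wild-type libraries and 96.5, 94.8 and 101 in the knockout libraries, a rise of 0.23 with TMM scaling (adjusted p = 0.0212, edgeR) that no longer passed when knockout library 3, wild-type library 2 or wild-type library 3 was left out, and whose sign turned with length and GC offsets (-0.15). The groups of both genes did not overlap.

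The assembly factors insert the cofactors of the complex or protect its free subunits. Sdhaf1, which supports iron-sulphur insertion into Sdhb, stood at 11.7, 15.6 and 13.2 TMM-scaled CPM in the wild-type libraries and 4.67, 4.41 and 2.65 in the knockout libraries, or 752, 1281 and 1143 reads in the wild-type libraries and 176, 156 and 76 in the knockout libraries. Every knockout library was below every wild-type library, and this was the largest fall of the 51 genes with TMM scaling (log2 fold change -1.78, SE 0.21, adjusted p = 0.000186, edgeR). With length and GC offsets Sdhaf1 was at -1.81, and Cox7a1 was lower still (-2.18). Exons annotated to other genes cover 69.6% of the exon length of Sdhaf1 (chr7:30321406-30323895, minus strand). Because the sources used here do not say whether reads were counted by strand, the reads of overlapping genes cannot be told apart. Sdhaf4, which binds the free flavoprotein, stood at 11.2, 9.43 and 10.7 CPM in the wild-type libraries and 6.74, 7.06 and 6.65 in the knockout libraries (log2 fold change -0.61, SE 0.12, adjusted p = 0.00407, edgeR), again without overlap. Sdhaf2, which helps attach flavin to Sdha, had a log2 fold change of 0.02 with overlapping groups, and Sdhaf3 had -0.45 (adjusted p = 0.117, edgeR).

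All 9 genes of complex III were higher in knockout with TMM scaling, with a median log2 fold change of 0.77 and a range from 0.34 to 1.42. With total counts 8 were lower and only Uqcrh was higher, beside 70.7% and 4.24% of all genes tested, with a median of -0.36. The core proteins Uqcrc1 and Uqcrc2, the catalytic Cyc1 and Uqcrfs1, and 5 small subunits make up the list.

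Uqcrc1 (chr9:108936633-108949623, plus strand) and Uqcrc2 encode the large matrix-facing core proteins. Uqcrc1 stood at 1656, 1574 and 1515 TMM-scaled CPM in the wild-type libraries and 2378, 2406 and 2621 in the knockout libraries (log2 fold change 0.64, SE 0.06, adjusted p = 4.45e-05, edgeR). Uqcrc2 stood at 113, 118 and 116 CPM in the wild-type libraries and 174, 169.9 and 178 in the knockout libraries (log2 fold change 0.59, SE 0.06, adjusted p = 6.08e-05, edgeR), with 19.7% of its exon length shared with exons annotated to other genes. Neither gene's groups overlapped, and both rose by nearly the same amount. The ratio of Uqcrc1 to Uqcrc2 reads within a library, which does not depend on scaling, was 14.6, 13.3 and 13.1 in the wild-type libraries and 13.6, 14.2 and 14.7 in the knockout libraries, with overlapping groups and a log2 difference of 0.05 (exact permutation p = 0.4).

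The catalytic subunits carry the electrons. Uqcrfs1, the Rieske iron-sulphur protein, stood at 140.4, 123 and 119 CPM in the wild-type libraries and 213, 224 and 219 in the knockout libraries with TMM scaling (log2 fold change 0.78, SE 0.08, adjusted p = 4.85e-05, edgeR). Cyc1, cytochrome c1, stood at 337, 333 and 326 CPM in the wild-type libraries and 494, 479 and 369 in the knockout libraries (log2 fold change 0.43, SE 0.10, adjusted p = 0.0112, edgeR). Knockout library 3 was the lowest of its group for Cyc1, near the wild-type level, and the call was lost without knockout library 2. Cycs (chr6:50562563-50566538, minus strand), the somatic cytochrome c that shuttles electrons to complex IV, stood at 1129.8, 1356 and 1357 CPM in the wild-type libraries and 2169, 2281 and 2476 in the knockout libraries (log2 fold change 0.85, SE 0.08, adjusted p = 5.67e-05, edgeR). By total counts Cycs stood at 1623, 2058 and 2024 CPM in the wild-type libraries and 1432, 1563 and 1684 in the knockout libraries, with overlapping groups and a change on the log2 scale of -0.29 (SE 0.10, adjusted p = 0.0215) in edgeR.

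Among the small subunits, Uqcrh, the hinge protein next to cytochrome c1, stood at 199, 192 and 199 TMM-scaled CPM in the wild-type libraries and 502, 549 and 528 in the knockout libraries (log2 fold change 1.42, SE 0.06, adjusted p = 2.12e-07, edgeR). It also stood apart by total counts, at 285, 292 and 296 CPM in the wild-type libraries and 331, 376 and 359 in the knockout libraries. The groups did not overlap on either scale, and the total-count change was 0.29 (SE 0.06, adjusted p = 0.00229) in edgeR. Uqcr10 rose by 0.89, Uqcr11 by 0.86 and Uqcrb by 0.77 on the log2 scale with TMM scaling. Uqcrq stood at 369, 315 and 315 CPM in the wild-type libraries and 417, 425 and 420.0 in the knockout libraries. This was the smallest rise of complex III with TMM scaling (log2 fold change 0.34, SE 0.07, adjusted p = 0.00696, edgeR). By total counts all of these but Uqcrh were lower, Uqcrq by the most (-0.79). With length and GC offsets 5 of the 9 genes were higher, beside 15.2% of all genes tested. Cyc1 (0.20), Uqcr10 (0.003), Uqcr11 (0.0135) and Uqcrb (0.175) no longer passed. Uqcrq (0.195) was then above Uqcr10, Uqcr11 and Uqcrb.

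**Figure D2:**
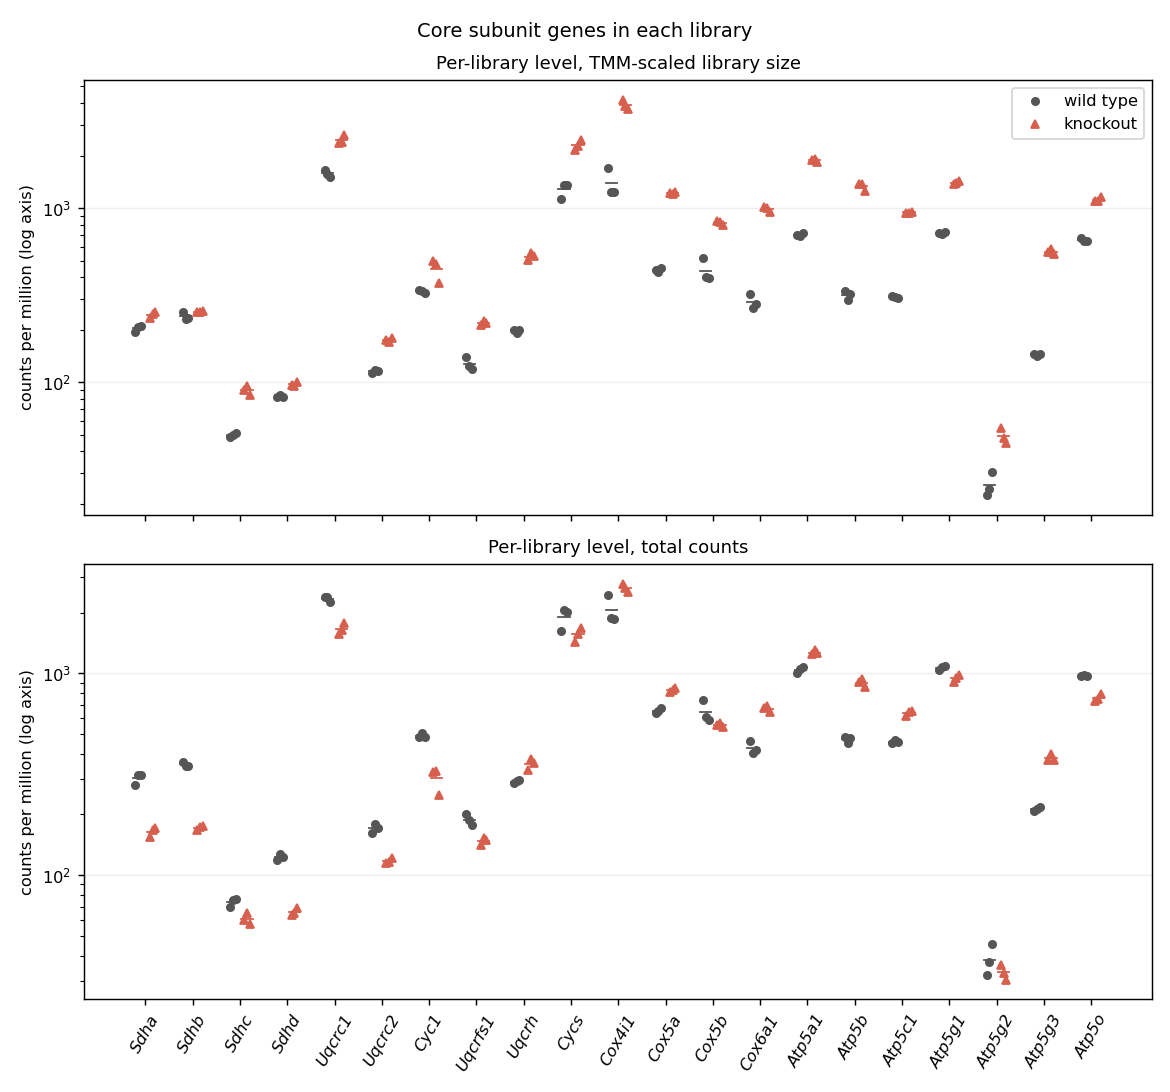
Level (CPM, log axis) of core and catalytic subunit genes in each library, with TMM scaling (top) and by total counts (bottom). Wild-type and knockout libraries have separate symbols (n = 3 per group). With TMM scaling the knockout libraries of Atp5b sit between 1259 and 1379 and the wild-type libraries between 298 and 335, while the libraries of Sdhb overlap. By total counts every knockout library of Sdhb is below every wild-type library.

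In complex IV, 12 of 16 genes were higher with TMM scaling and 4 did not pass, with a median log2 fold change of 0.76. The 11 main isoforms were all higher (median 0.94), and of the 5 alternative isoforms (forms mainly of lung, muscle or testis, and Cox6c2) Cox6b2 alone was higher. With total counts Cox4i1, Cox5a and Cox6a1 were higher, 9 genes were lower and the median was -0.37. On that scale 4.24% of all genes tested were higher and 70.7% lower.

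Cox4i1 (chr8:120668222-120674207, plus strand), the ubiquitous subunit 4, stood at 1703, 1245 and 1242 TMM-scaled CPM in the wild-type libraries and 4207, 3855 and 3714 in the knockout libraries (log2 fold change 1.49, SE 0.12, adjusted p = 1.37e-05, edgeR). Wild-type library 1 was the highest of its group but far below the knockout libraries. By total counts the values were 2446, 1889 and 1851 CPM in the wild-type libraries and 2778, 2642 and 2526 in the knockout libraries, where wild-type library 1 came close to knockout library 3, with a change on the log2 scale of 0.36 (SE 0.10, adjusted p = 0.00876) in edgeR. Cox6a1, the widely expressed form of subunit 6a, had the largest rise in the complex with TMM scaling and by total counts. It stood at 323, 267 and 281 TMM-scaled CPM in the wild-type libraries and 1018, 1008 and 944 in the knockout libraries (log2 fold change 1.77, SE 0.08, adjusted p = 2.95e-07, edgeR) and was also higher by total counts, by 0.64 on the log2 scale. The groups of Cox4i1 and Cox6a1 were apart on both scales. With length and GC offsets Cox6a1 was at 0.99, below Cox5a (1.44), Cox4i1 (1.19) and Cox6c (1.03).

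Cox5a and Cox5b sit on the matrix side of the enzyme. Cox5a stood at 441, 428 and 453 TMM-scaled CPM in the wild-type libraries and 1225, 1204 and 1239 in the knockout libraries (log2 fold change 1.47, SE 0.05, adjusted p = 1e-07, edgeR), and Cox5b at 515, 401 and 395 CPM in the wild-type libraries and 843, 828 and 798 in the knockout libraries (log2 fold change 0.91, SE 0.10, adjusted p = 0.000106, edgeR). Cox5a was higher by total counts as well (0.34), whereas Cox5b was lower (-0.22). Cox5b is uncertain in so far as a pseudogene-named copy, Cox5b-ps, is counted apart from it, with 36136 reads in all. Cox8a and Cox6b1 rose by 1.28 and 1.13 with TMM scaling and did not pass by total counts, where their values were 0.15 and -0.0021. With length and GC offsets Cox8a was higher by 0.42 and Cox6b1 by 0.36. Cox6c rose by 0.94, Cox7b by 0.66, Cox7a2l, a factor of supercomplex assembly, by 0.55, Cox7a2 by 0.38 and Cox7c by 0.28 with TMM scaling, and all were lower by total counts. The Cox7a2 call was lost without knockout library 1 or 2 or wild-type library 2 or 3, and the Cox7c call without wild-type library 3. The values of Cox7a2 and Cox7c with length and GC offsets turned to -0.17 and -0.15.

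The muscle isoforms were among the lowest members. Cox6a2, the heart and muscle form of subunit 6a, stood at 4.40, 3.75 and 4.89 TMM-scaled CPM in the wild-type libraries and 3.69, 1.70 and 2.71 in the knockout libraries, or 282, 307 and 424 reads in the wild-type libraries and 139, 60 and 78 in the knockout libraries. Every knockout library was below every wild-type library (log2 fold change -0.69, SE 0.27, adjusted p = 0.0872, edgeR), yet the gene did not pass. Cox7a1, the heart and muscle form of subunit 7a, had 72, 64 and 62 reads in the wild-type libraries and 6, 22 and 9 in the knockout libraries, again without overlap and without passing (log2 fold change -1.25, SE 0.57, adjusted p = 0.13, edgeR). By total counts both were called lower, at -1.82 and -2.37. With length and GC offsets in the TMM fit both passed as lower, at -1.48 (adjusted p = 0.00265, edgeR) and -2.18 (adjusted p = 0.0162, edgeR). The defining muscle markers Ckm and Acta1, the 2 of the 5 listed that the table holds, summed to 0.93 to 1.77 TMM-scaled CPM in wild type and 0.93 to 1.60 in knockout. Cox4i2, the lung form of subunit 4, stood at 1.64, 1.37 and 2.54 CPM in the wild-type libraries and 2.68, 3.08 and 2.19 in the knockout libraries, with overlapping groups. Cox6b2, the testis form, stood at 9.34, 8.46 and 10.3 CPM in the wild-type libraries and 17.4, 15.7 and 16.2 in the knockout libraries (log2 fold change 0.81, SE 0.11, adjusted p = 0.000436, edgeR), without overlap. This call was lost with length and GC offsets, at 0.30 (adjusted p = 0.0659, edgeR). Cox6c2, which the annotation lists as a processed pseudogene, had a value of 0.70 that did not pass.

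All 17 genes of complex V were higher with TMM scaling, with a median log2 fold change of 0.93 and a range from 0.40 to 2.07. With total counts 4 were higher, 10 were lower and 3 did not pass, with a median of -0.21, where 4.24% of all genes tested were higher and 70.7% lower. The 5 genes of the F1 head, which makes the ATP, had a median of 1.42 with TMM scaling, above those of the c ring (0.96), the peripheral stalk (0.79) and the membrane accessory subunits (0.82). Of the F1 genes, 3 were also higher by total counts, as was 1 of the 3 c ring genes. These medians are descriptions of small groups, and the differences between the groups were not tested.

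Atp5b (chr10:128083273-128090391, plus strand) encodes the catalytic beta subunit and had the largest rise of the 51 genes. Its TMM-scaled level was 335, 298 and 322 CPM in the wild-type libraries and 1379, 1369 and 1259 in the knockout libraries. This was 4.19-fold higher in knockout (log2 fold change 2.07, SE 0.07, adjusted p = 6.75e-08, edgeR). By total counts the levels were 482, 452 and 480.0 CPM in the wild-type libraries and 910.2, 938 and 856 in the knockout libraries, still without overlap, and the log2 change was 0.94 (SE 0.06, adjusted p = 1.14e-06) in edgeR. Its partner in the head, alpha (Atp5a1), stood at 697, 691 and 723 TMM-scaled CPM in the wild-type libraries and 1890.4, 1903 and 1847 in the knockout libraries (log2 fold change 1.42, SE 0.05, adjusted p = 1.03e-07, edgeR). It was higher by total counts too, by 0.28 on the log2 scale.

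The enzyme holds alpha and beta in equal number, and the reads of their genes changed unequally. The ratio of Atp5b to Atp5a1 reads within each library was 0.481, 0.431 and 0.446 in the wild-type libraries and 0.729, 0.719 and 0.681 in the knockout libraries. The groups did not overlap, and the ratio was 0.65 higher on the log2 scale in knockout (exact permutation p = 0.1, the smallest that 3 against 3 libraries allow, and 0.111 after Benjamini-Hochberg adjustment over 10 pairs). Atp5c1, the gamma shaft that turns inside the head, stood at 314, 308 and 306 TMM-scaled CPM in the wild-type libraries and 937, 941 and 956 in the knockout libraries (log2 fold change 1.61, SE 0.05, adjusted p = 6.39e-08, edgeR). It was among the genes higher on both scales, with 0.48 by total counts. The small F1 subunits delta (Atp5d) and epsilon (Atp5e) rose by 1.30 and 0.88 with TMM scaling, and by total counts Atp5d did not pass (0.17) and Atp5e was lower (-0.25).

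The c subunit forms the rotating ring of the membrane part, and Atp5g1, Atp5g2 and Atp5g3 encode the same mature protein with different import sequences. Atp5g3 (chr2:73908447-73911326, minus strand) stood at 145, 141 and 146 TMM-scaled CPM in the wild-type libraries and 561, 583 and 545 in the knockout libraries. It was 3.91-fold higher in knockout (log2 fold change 1.97, SE 0.06, adjusted p = 4.74e-08, edgeR) and also higher by total counts, by 0.83 (SE 0.06, adjusted p = 1.81e-06) in edgeR. Atp5g1 (chr11:96068852-96075670, minus strand) stood at 721, 713 and 730.5 TMM-scaled CPM in the wild-type libraries and 1376, 1387 and 1438 in the knockout libraries (log2 fold change 0.96, SE 0.05, adjusted p = 9.11e-07, edgeR) and was lower by total counts (-0.18). Atp5g2 stood at 22.4, 24.4 and 30.4 TMM-scaled CPM in the wild-type libraries and 54.4, 47.8 and 44.7 in the knockout libraries (log2 fold change 0.93, SE 0.13, adjusted p = 0.00048, edgeR) and did not pass by total counts (-0.21).

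The mixture of the c genes differed between the groups without any scaling. Atp5g1 reads per Atp5g3 read were 4.96, 5.05 and 5.01 in the wild-type libraries and 2.45, 2.38 and 2.64 in the knockout libraries. Atp5g2 reads per Atp5g3 read were 0.154, 0.173 and 0.209 in the wild-type libraries and 0.097, 0.082 and 0.082 in the knockout libraries. Both ratios were lower in every knockout library than in every wild-type library, by -1.01 and -1.03 on the log2 scale (exact permutation p = 0.1 for each, 0.111 after adjustment over the 10 pairs). The deposited FPKM (the deposited level scaled to gene length and library size) gave -0.98 and -0.90 for these differences.

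**Figure D3:**
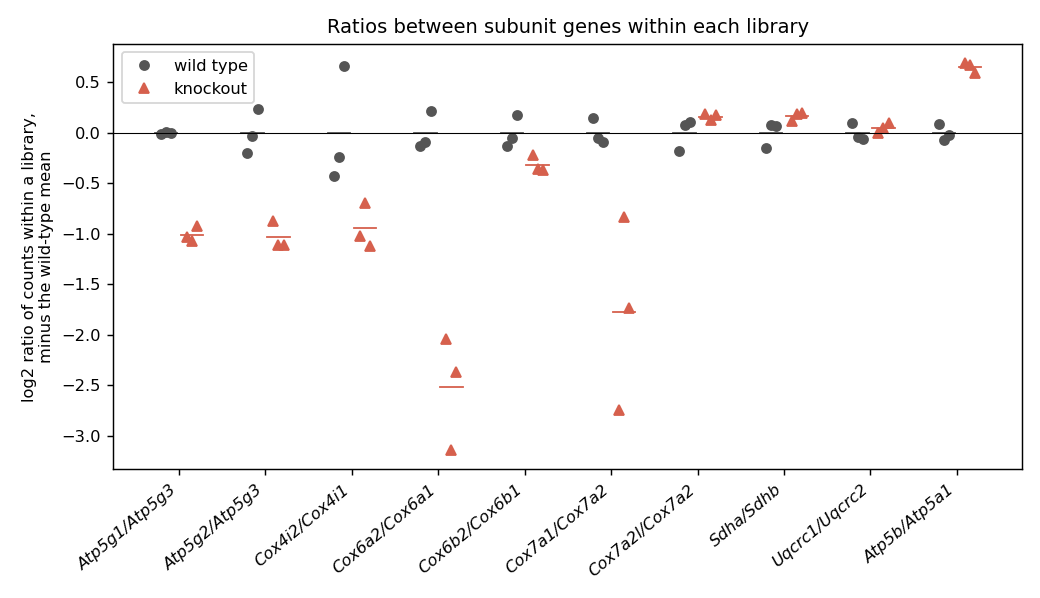
Log2 ratio of reads between related subunit genes within each library, minus the wild-type mean, for 10 pairs (n = 3 libraries per group, lines mark group means). Atp5g1/Atp5g3 and Atp5g2/Atp5g3 fell by 1.01 and 1.03 in knockout, Atp5b/Atp5a1 was 0.65 higher, and the groups overlapped for Uqcrc1/Uqcrc2 only.

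The other pairs were compared in the same way. Groups did not overlap for 9 of the 10 pairs, each with the exact permutation p of 0.1 (0.111 after adjustment over the 10 pairs). How often ratios of other gene pairs stood apart was not computed. Of single genes tested, with TMM scaling, 22.2% stood above and 24.4% below in every knockout library. The alternative isoforms took a smaller part of the reads in knockout. Log2 differences were -2.52 for Cox6a2 over Cox6a1, -1.77 for Cox7a1 over Cox7a2, -0.95 for Cox4i2 over Cox4i1 and -0.32 for Cox6b2 over Cox6b1. These ratios were not adjusted for gene length and base composition. With length and GC offsets in the TMM fit, Cox6b2 and Cox6b1 changed nearly alike, by 0.30 and 0.36. In the other isoform pairs named here the alternative form kept the lower value with these offsets. Cox6a2 reads were 0.0137, 0.0141 and 0.0174 in the wild-type libraries and 0.00364, 0.0017 and 0.00289 in the knockout libraries per Cox6a1 read. The ratio of Sdha to Sdhb was 0.77, 0.901 and 0.894 in the wild-type libraries and 0.927, 0.968 and 0.98 in the knockout libraries, 0.17 higher on the log2 scale, and Cox7a2l over Cox7a2 was 0.16 higher. The ratios of Cox7a1 and Cox4i2 rest on few reads.

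The peripheral stalk holds the head still while the ring turns. Atp5o, the OSCP subunit at its top, stood at 673, 645 and 651 TMM-scaled CPM in the wild-type libraries and 1099.9, 1096 and 1166 in the knockout libraries (log2 fold change 0.77, SE 0.05, adjusted p = 5.61e-06, edgeR), although 47.9% of its exon length is shared with exons annotated to other genes. Atp5h (subunit d) rose by 0.99, Atp5j (F6) by 0.81 and Atp5pb (subunit b) by 0.73, and all 4 stalk genes were lower by total counts. Among the membrane accessory subunits, Atp5l (g) rose most with TMM scaling, by 1.05, and did not pass by total counts (-0.08). Atp5j2 (f), Atp5mpl and Atp5md rose by 0.82, 0.82 and 0.81. Atp5k (e), which supports dimers of the enzyme, stood at 304, 255 and 256 TMM-scaled CPM in the wild-type libraries and 358, 374 and 345 in the knockout libraries, the smallest rise of complex V (log2 fold change 0.40, SE 0.08, adjusted p = 0.00462, edgeR), and it was lower by total counts (-0.73) and with length and GC offsets (-0.46).

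The shares of the complexes among the members' reads shifted between the groups. Complex II took 3.93% ± 0.18 (SD, n = 3) of the summed member counts in wild type and 2.23% ± 0.04 in knockout, and complex III 28.8% ± 0.21 and 23.8% ± 0.32. Complex IV took 25.7% ± 1.94 and 30.6% ± 0.83, and complex V 33.5% ± 0.61 and 36.2% ± 0.24. The groups did not overlap for any of these 4 complexes. Cytochrome c took 6.72, 8.77 and 8.68% in the wild-type libraries and 6.65, 7.05 and 7.66% in the knockout libraries, which overlapped. By summed FPKM the shift of complex V went the other way, from 34.0% ± 0.77 to 33.2% ± 0.80, with overlapping groups. The 51 genes together made up 2.36% ± 0.04 (SD, n = 3) of every wild-type library's reads on average and 2.19% ± 0.03 of every knockout library's.

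**Figure D4:**
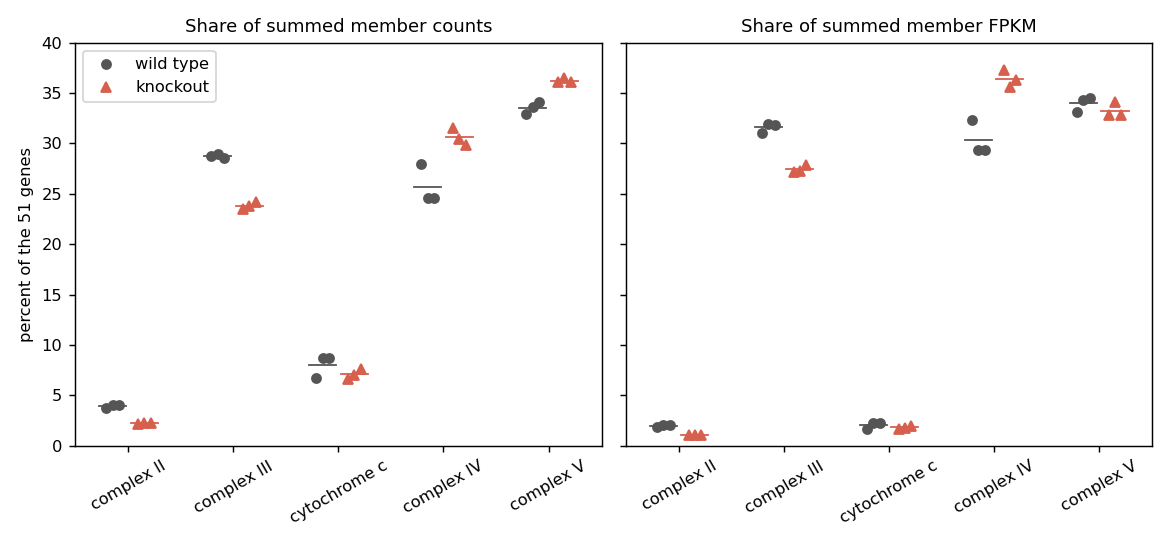
Share of each complex in the summed counts (left) and in the summed FPKM (right) of the 51 genes, in percent, by library, with lines at the group means (n = 3). Complex III fell from 28.8 to 23.8% of the counts and complex IV went from 25.7 to 30.6%, while complex V went up by counts and not by FPKM.

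Levels per gene length can be compared with the change. Across the 51 genes, the TMM-scaled log2 fold change had a Spearman rho of 0.55 with the mean wild-type FPKM, beside 0.20 across all 15474 genes tested. The correlations with exon length were 0.09 for the members and -0.27 for all genes with a length, and those with GC content 0.11 and 0.10. These points are genes of the same libraries and no independent replicates. The highest wild-type FPKM belonged to Uqcr11 (3026 on average) and Cox4i1 (2308), and the lowest to Sdhaf3 (1.49) and Cox7a1 (2.66).

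**Figure D5:**
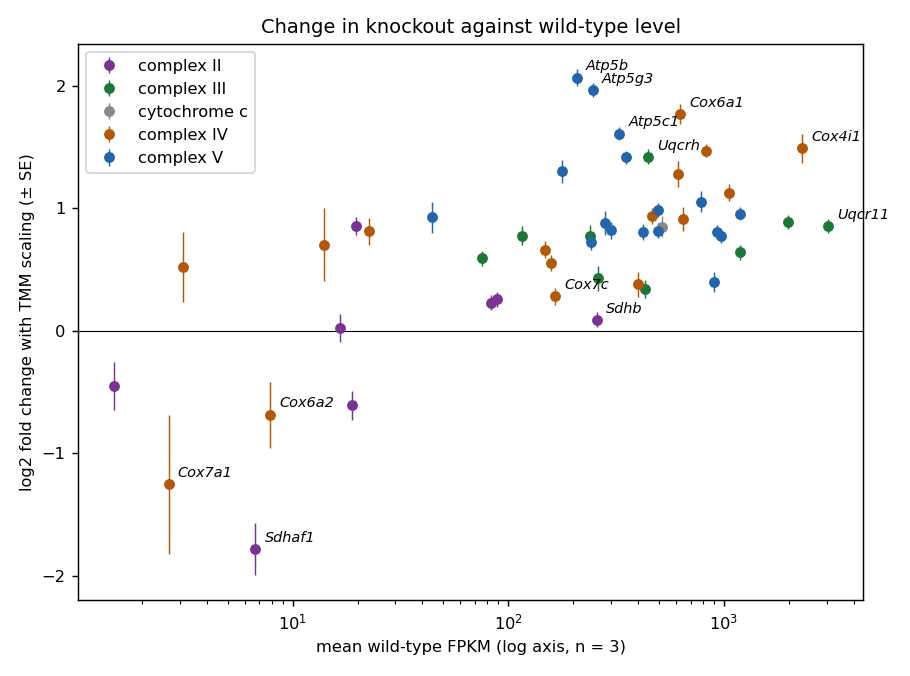
Log2 fold change with TMM scaling (knockout over wild type, ± SE) against the mean wild-type FPKM (log axis, n = 3) of the 51 genes, coloured by complex. Most genes lie above 0, Sdhaf1 and Cox7a1, of low FPKM, lie lowest, and Spearman's rho is 0.55.

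Assembly factors and associated proteins were called in both directions for complexes IV and V with TMM scaling, and only lower for complex III. These calls are to be read against the 17.2% higher and 14.4% lower among all genes tested. Of 6 assembly factors of complex III, 3 did not pass and Uqcc1 (-0.59), Lyrm7 (-0.91) and Bcs1l (-0.38) were lower with TMM scaling. Of 25 measured assembly factors and associated proteins of complex IV, Cox15 (1.29), a haem A synthase, Ndufa4 (0.82) and Higd2a (0.44) were higher, and Coa3 (-0.44), Coa4 (-0.64) and Pet100 (-0.52) were lower, while 19 did not pass. Of 6 for complex V, Atpif1, the inhibitor of the enzyme's reverse reaction, was higher (0.84) and Atpaf1, a chaperone of the beta subunit, was lower (-2.29), and 4 did not pass. Atpaf1 was lower on both scales, where Atp5b was higher on both, at 8.00, 10.6 and 9.70 TMM-scaled CPM in the wild-type libraries and 2.63, 1.19 and 1.95 in the knockout libraries. With total counts all 6 of complex III, all 6 of complex V and 23 of the 25 of complex IV were lower, beside 70.7% of all genes tested. With length and GC offsets more were lower than with TMM scaling alone: 5 of 6 for complex III, 10 of 25 for complex IV (2 higher) and 5 of 6 for complex V (1 higher). Among all genes tested these offsets called 15.2% higher and 15.3% lower.

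Complex I, the other entry point of the chain, showed a smaller median. Of its 37 measured nuclear subunit genes 22 were higher and 1 (Ndufa12) was lower with TMM scaling, with a median log2 fold change of 0.34 beside 0.81 for the 51 members and 17.2% of all genes called higher. With total counts 35 were lower and 2 did not pass, where 70.7% of all genes tested were lower. Of the 37, 15 were higher and 8 lower with length and GC offsets, beside 15.2% and 15.3% of all genes tested, with a median of 0.07. The difference between these lists was not tested. The 6 mitochondrially encoded subunits of complexes III to V were all higher on both scales, where 4.24% of all genes tested were. Their medians were 1.71 (TMM) and 0.57 (total counts). The largest was mt-Co3, a catalytic core subunit of complex IV, at 2335, 2397 and 2769 TMM-scaled CPM in the wild-type libraries and 16633, 16645 and 16639 in the knockout libraries.

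Among 13 regulators of mitochondrial biogenesis, Myc (1.07) and Polrmt (0.50), the mitochondrial RNA polymerase, were higher and Pprc1 (-0.61) was lower with TMM scaling. The other 10 did not pass, and the shares called were under those of all genes tested (17.2% higher, 14.4% lower). Nrf1, whose core sequence is in the promoters above, had a log2 fold change of 0.27 that did not pass (adjusted p = 0.0563, edgeR), and Gabpa, the DNA-binding subunit of GABP, had -0.26 (adjusted p = 0.348). Tfam, which packs mitochondrial DNA, had 0.0032. With total counts 12 of the 13 were lower, where 70.7% of all genes were.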

How the data were processed

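RNA-seq was measured in 3 wild-type and 3 knockout libraries, with totals of 42235077 to 58106099 reads. The authors deposited raw read counts per gene, FPKM values, and the log2 fold changes, p-values, scores and signal (normalized mean) columns of their own comparison, per the file headers. Tools in the submitters' processing notes are DESeq2 1.32.0, featureCounts 2.0.1, HISAT2 2.2.1 and fastp 0.22.0, with the build mm10. Whether strand was used in counting was not given in the sources used here. The header gives the FPKM columns no unit: for 755 to 758 genes with a single transcript per library, 98.7 to 98.9% of values lay within 1% of a constant multiple of FPKM computed from the counts. For genes with several transcripts they need not follow the counts.

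Counts were tested with edgeR 4.0.16 (R 4.3.3): filterByExpr, TMM scaling, quasi-likelihood test, Benjamini-Hochberg adjustment over 15474 genes, threshold 0.05, with a second fit on total counts. Ratios used log2 of counts plus 0.5 and exact two-sided permutation tests over libraries. Gene IDs were matched to GENCODE vM21 (18470 of 18491), whose coordinates are on GRCm38. Scripts were tested on simulated data. Alternatives were RLE and upper-quartile factors, no filter, DESeq2 1.42.0, length and GC offsets, a replicate block and leaving out each library. Members, gene lists and tests were chosen with earlier results of these data known. Named in full were core and catalytic subunits and, per complex, the largest and smallest changes. Motif positions count from the first base of the promoter window.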

Additional observations from a re-analysis of the deposited data

How the results depend on the processing

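RLE and upper-quartile factors, no filter, DESeq2 and a replicate block each kept the direction and the call of all 51 genes. Scaling to total counts changed most: it called 656 genes higher and 10936 lower in all, 8 and 36 members, and 0, 1, 3 and 4 members of complexes II, III, IV and V higher, with medians of -1.08, -0.36, -0.37 and -0.21 and of -0.33 over all members. It reversed 36 members against TMM scaling. Their log2 fold changes by total counts were, in complex II, Sdha -0.88, Sdhb -1.04, Sdhc -0.28, Sdhd -0.90 and Sdhaf2 -1.11. In complex III they were Uqcrc1 -0.49, Uqcrc2 -0.54, Cyc1 -0.71, Uqcrfs1 -0.35, Uqcrb -0.36, Uqcrq -0.79, Uqcr10 -0.24 and Uqcr11 -0.28, with Cycs at -0.29. In complex IV they were Cox4i2 -0.61, Cox5b -0.22, Cox6b1 -0.0021, Cox6b2 -0.32, Cox6c -0.20, Cox6c2 -0.42, Cox7a2 -0.75, Cox7a2l -0.58, Cox7b -0.47 and Cox7c -0.85. In complex V they were Atp5e -0.25, Atp5g1 -0.18, Atp5g2 -0.21, Atp5pb -0.405, Atp5h -0.15, Atp5j -0.33, Atp5o -0.36, Atp5j2 -0.31, Atp5k -0.73, Atp5l -0.077, Atp5md -0.33 and Atp5mpl -0.32. The scaling itself sets this shift, since the median of all genes tested moved by -1.13.

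Length and GC offsets called 33 members higher and 5 lower, with 5 of complex III higher and Cox6a2, Cox7a1 and Atp5k added to the lower ones, and gave medians of -0.089 for complex II, 0.20 for III, 0.30 for IV and 0.47 over all members. They reversed Sdhb (-0.024), Sdhd (-0.15), Cox4i2 (-0.22), Cox6c2 (-0.57), Cox7a2 (-0.17), Cox7c (-0.15) and Atp5k (-0.46). With these offsets and a replicate block, 5 members were lower, 4 of complex III were higher, and the medians were -0.089, 0.20, 0.30 and 0.47. The same genes reversed, at -0.024 for Sdhb, -0.15 for Sdhd, -0.17 for Cox4i2, -0.53 for Cox6c2, -0.16 for Cox7a2, -0.15 for Cox7c and -0.46 for Atp5k. The cause was not tested. A replicate block alone called 42 members higher and 2 lower, with 2467 genes called higher and 1906 genes called lower in the whole table. Libraries of the same number did not deviate together (correlations of 0.041, -0.005 and 0.048), so the numbers were not taken to pair them.

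Leaving out each library gave 39 to 43 members higher, 1356 to 2142 genes called lower in the whole table (1356 without wild-type library 2 and 1419 without wild-type library 3), a median of 0.71 to 0.91 for complex IV, and -0.045 to 0.13 for Sdhaf2. Single calls were gained for Cox6a2 without knockout library 1, Cox7a1 without knockout library 2 and Cox6c2 without wild-type library 1. The assembly factors of complex II alone held 0 genes called higher with TMM scaling in edgeR and DESeq2 (Sdhaf2, the one with a positive value, had an adjusted p of 0.902), and its subunits alone 3. The share of complex V changed by -0.736 percentage points by FPKM and by 2.70 by counts. With 3 libraries per group, exact tests of single ratios cannot go below p = 0.1, and low members such as Cox7a1 rest on few reads.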

Other observations

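The name rule left out 8 pseudogene-named genes of the same families. With TMM scaling 6 of them were called higher, where 17.2% of all genes were. With total counts 7 did not pass and 1, Cox7c-ps1, was lower, where 70.7% of all genes tested were lower and 4.24% higher. Cox5b-ps, which the annotation lists as protein coding, had 36136 reads in all and rose by 1.03 on the log2 scale with TMM scaling, beside 0.91 for Cox5b. With length and GC offsets its value was -0.07, and of the 8 genes 7 did not pass and Atp5k-ps2 was lower (-0.72). Those offsets called 15.2% of all genes tested higher and 15.3% lower. Reads of such near-identical copies may be split between gene and copy by the counting.

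The deposited FPKM of Atp5g1 was 958, 1247 and 1039 in the knockout libraries, whereas its TMM-scaled CPM there was 1376, 1387 and 1438, so the FPKM varied more than the counts between these libraries. Exon bases of 17 of the 51 genes were shared with another annotated gene.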
